A study of Homo sapiens with 13 samples.

Results

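Of 19894 promoter windows in MDA-MB-231 cells, 1104, or 5.55% (95% Wilson interval 5.24% to 5.88%), carried H3K4me1 with neither H3K27ac nor H3K4me3. Each window was 3 kb and centred on the transcription start site (TSS) of a protein-coding gene, that of its Ensembl canonical transcript (GENCODE release 44, coordinates of GRCh37). A window was taken when at least 1 bp lay in an H3K4me1 region and no base lay in an H3K27ac or H3K4me3 region. The windows were thus chosen by the positions of H3K4me1, H3K27ac and H3K4me3, and what these lists show at them is given as a description. All counts below are of the 1104 windows and no filter was applied to them.

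The established line MDA-MB-231 comes from a human triple-negative breast cancer, and all lists describe it in standard culture, without treatment. Chromatin immunoprecipitation and sequencing gave 1 list of enriched regions for each of 6 targets: H3K4me1, H3K27ac, H3K4me3, RNA polymerase II (Pol II), the DNA-binding protein CTCF and the acetyltransferases p300/CBP. The p300/CBP list came from 1 library and each of the others from 2 replicate libraries merged before peaks were called. Input libraries were not analysed here. The lists hold positions with no height, count or score, so depth and the error between replicates are unknown, and every interval below covers counting error only. Windows of a single line are not replicates, so no p-value was computed. As a check of the label, windows of 12 of 12 mesenchymal and basal B marker genes overlapped H3K27ac, against 4 of 12 luminal marker genes (CLDN7, ERBB3, FOXA1 and SPDEF) and 61.4% of all windows.

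H3K4me1, monomethylation of lysine 4 of histone H3, is typical of enhancers, whereas trimethylation of the same residue is typical of active promoters, above all those in CpG islands. Acetylation of lysine 27 accompanies activity at both kinds of element. H3K4me1 without acetylation has been called a primed or poised state, and promoters that lack H3K4me3 generally produce little RNA. No RNA was measured in these lists.

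The next sequence shows CpG-poor DNA at an extreme case among these promoters. The 150 bases just upstream of the TSS are printed 5′ to 3′ on the gene's strand, from GRCh37, for the least CpG-rich of the 6 promoters with the widest H3K4me1 region. Capitals would mark CpG dinucleotides, of which it has 0. It belongs to KCTD4, which encodes a protein with a potassium channel tetramerisation domain, and lies at chr13:45775181-45775330 on the minus strand. Within 500 bp of this TSS, CpG observed/expected (defined below) was 0.0875 and GC content 37.1%. Both values are under the lower quartiles of the H3K4me1-only windows, 0.191 and 50.3%.
KCTD4: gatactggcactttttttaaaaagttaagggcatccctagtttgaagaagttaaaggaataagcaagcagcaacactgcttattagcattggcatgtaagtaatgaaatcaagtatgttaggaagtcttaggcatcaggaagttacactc

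CTCF peaks were found in some of these windows, and 3 peak centres are printed on the plus strand of GRCh37 with capitals where the letters CCNNNAGNNGGC of the CTCF motif, or GCCNNCTNNNGG on the other strand, were matched. They are the 3 CTCF peak centres nearest a TSS whose stretch of at most 150 bases touched no annotated exon. KCNT1, a sodium-activated potassium channel gene, held 1 match at chr9:138593901-138594000. CATIP, at chr2:219221426-219221575, and NSG2, at chr5:173472526-173472675, held 0 in the bases shown.
KCNT1: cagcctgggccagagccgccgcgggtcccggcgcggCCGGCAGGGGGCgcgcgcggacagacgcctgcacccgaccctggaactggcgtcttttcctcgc
CATIP: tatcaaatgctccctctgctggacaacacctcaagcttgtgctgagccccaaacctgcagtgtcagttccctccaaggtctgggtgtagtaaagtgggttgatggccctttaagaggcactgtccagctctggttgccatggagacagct
NSG2: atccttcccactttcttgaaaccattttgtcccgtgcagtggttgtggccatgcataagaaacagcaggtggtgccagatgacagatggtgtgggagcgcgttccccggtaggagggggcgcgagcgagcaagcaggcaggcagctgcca

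Only 4 of these promoters had a p300/CBP peak, and the centres of the 3 nearest a TSS are printed on the plus strand of GRCh37. They belonged to BCL2A1, an antiapoptotic BCL2 family gene (chr15:80263601-80263700), KRTAP2-4, a keratin-associated protein gene of hair (chr17:39222651-39222750), and UGT2B7, a glucuronosyltransferase gene (chr4:69961251-69961400). They were searched for TGAGTCA and its reverse complement TGACTCA, the letters of the AP-1 element. There was no match, so no base is in capitals.
BCL2A1: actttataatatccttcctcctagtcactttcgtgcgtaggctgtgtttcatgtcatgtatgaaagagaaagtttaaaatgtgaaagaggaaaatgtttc
KRTAP2-4: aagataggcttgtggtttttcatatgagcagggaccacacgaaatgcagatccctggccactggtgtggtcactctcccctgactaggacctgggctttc
UGT2B7: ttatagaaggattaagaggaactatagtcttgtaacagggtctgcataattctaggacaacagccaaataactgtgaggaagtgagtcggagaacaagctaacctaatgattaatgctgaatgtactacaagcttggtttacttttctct

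Most of the H3K4me1-only promoters held a single H3K4me1 region, as did most windows of the other classes with H3K4me1. A single region was present in 1034 of 1104 windows (93.7%). The share was 92.7% with H3K4me1 and H3K27ac but no H3K4me3. It was 89.1% with H3K4me1 and H3K4me3 but no H3K27ac, and 52.9% with all 3 marks. H3K4me1 covered a median of 780 bp of the 3 kb (quartiles 450 and 1250 bp), and the widest region touching the window had a median width of 1150 bp (700 to 2000 bp), which is close to the 1200 bp of all H3K4me1 regions in the list. The 273 windows with H3K4me1 and H3K27ac but no H3K4me3 had wider regions, with a median of 3200 bp, and a median of 1940 bp covered. In the 274 windows with H3K4me1 and H3K4me3 but no H3K27ac the medians were 1220 bp and 1040 bp. At the margin of the rule, H3K4me1 covered 1 bp at KLHDC8A, 5 bp at PPP1R14D and 6 bp at MYPN. Just outside it, the nearest H3K4me1 region lay 1 bp from the window of CHCT1, 4 bp from that of NPTX2 and 6 bp from that of OVOL3. Under 250 bp was covered in 116 windows (10.5%).

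H3K4me1 lay over the TSS itself in 411 of the 1104 windows, or 37.2% (34.4% to 40.1%). It lay only upstream of the TSS in 343 (31.1%), only downstream in 297 (26.9%), and on both sides without covering the TSS in 53 (4.80%). The 10152 windows with all 3 marks were arranged in another way. In them H3K4me1 covered the TSS in 9.30% and flanked it on both sides in 46.9%. Where H3K27ac was present without H3K4me3, the TSS was covered in 71.4% of the 273 windows. With H3K4me1 and H3K4me3 but no H3K27ac it was covered in 42.3% (36.6% to 48.3%) of 274. That interval overlaps the interval of the H3K4me1-only windows. The plot of H3K4me1 coverage by distance shows these shapes, with a dip at the TSS in windows with all 3 marks and a low central maximum in the H3K4me1-only windows.

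**Figure D1:**
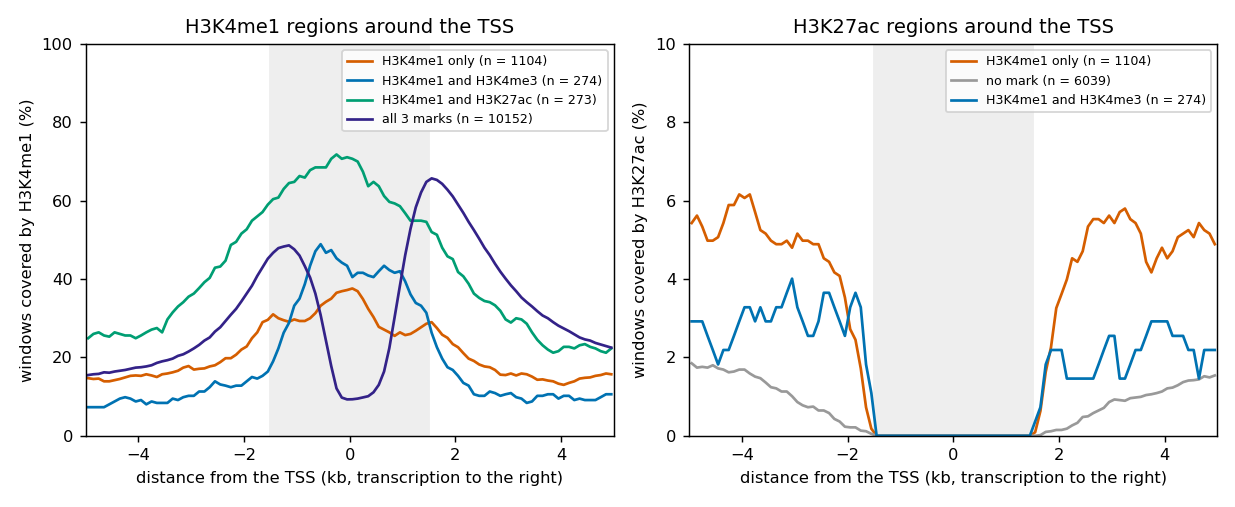
Percentage of windows covered by H3K4me1 (left) and by H3K27ac (right) at each distance from the TSS in kb, by class of window, with the 3 kb window shaded. H3K4me1 covered the TSS in 37.2% of H3K4me1-only windows and 9.30% of windows with all 3 marks, and H3K27ac is absent from the shaded part of the right panel because the classes shown there were chosen for its absence.

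The 6 promoters with the widest H3K4me1 regions had H3K27ac just outside the window in most cases. At LIF, the gene of leukaemia inhibitory factor, a cytokine of the interleukin 6 family, the region spanned 24200 bp (chr22:30627101-30651301) and covered all 3000 bp of the window, and the nearest H3K27ac region began 0.353 kb beyond it. NDST1, which encodes an enzyme of heparan sulphate synthesis, had a region of 20650 bp, and H3K27ac lay 1.76 kb from its window. The region at RARA, the retinoic acid receptor alpha gene, was 14350 bp wide and H3K27ac lay 0.469 kb away. These windows thus held no listed H3K27ac, although their wide H3K4me1 regions overlapped listed H3K27ac further out. Signal under the peak threshold cannot be seen in the lists.

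For the other 3 the widest region was 14550 bp at CEACAM16, 13700 bp at KCTD4 and 12450 bp at EID3, and the distance to H3K27ac was 1.77, 1.62 and 11.2 kb. At EID3 the wide region reached only 134 bp into the window. Pol II was listed in the windows of LIF, CEACAM16 and RARA. The map of listed regions shows that every one of these 6 promoters had between 2 and 8 H3K27ac regions within 25 kb of the TSS.

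**Figure D2:**
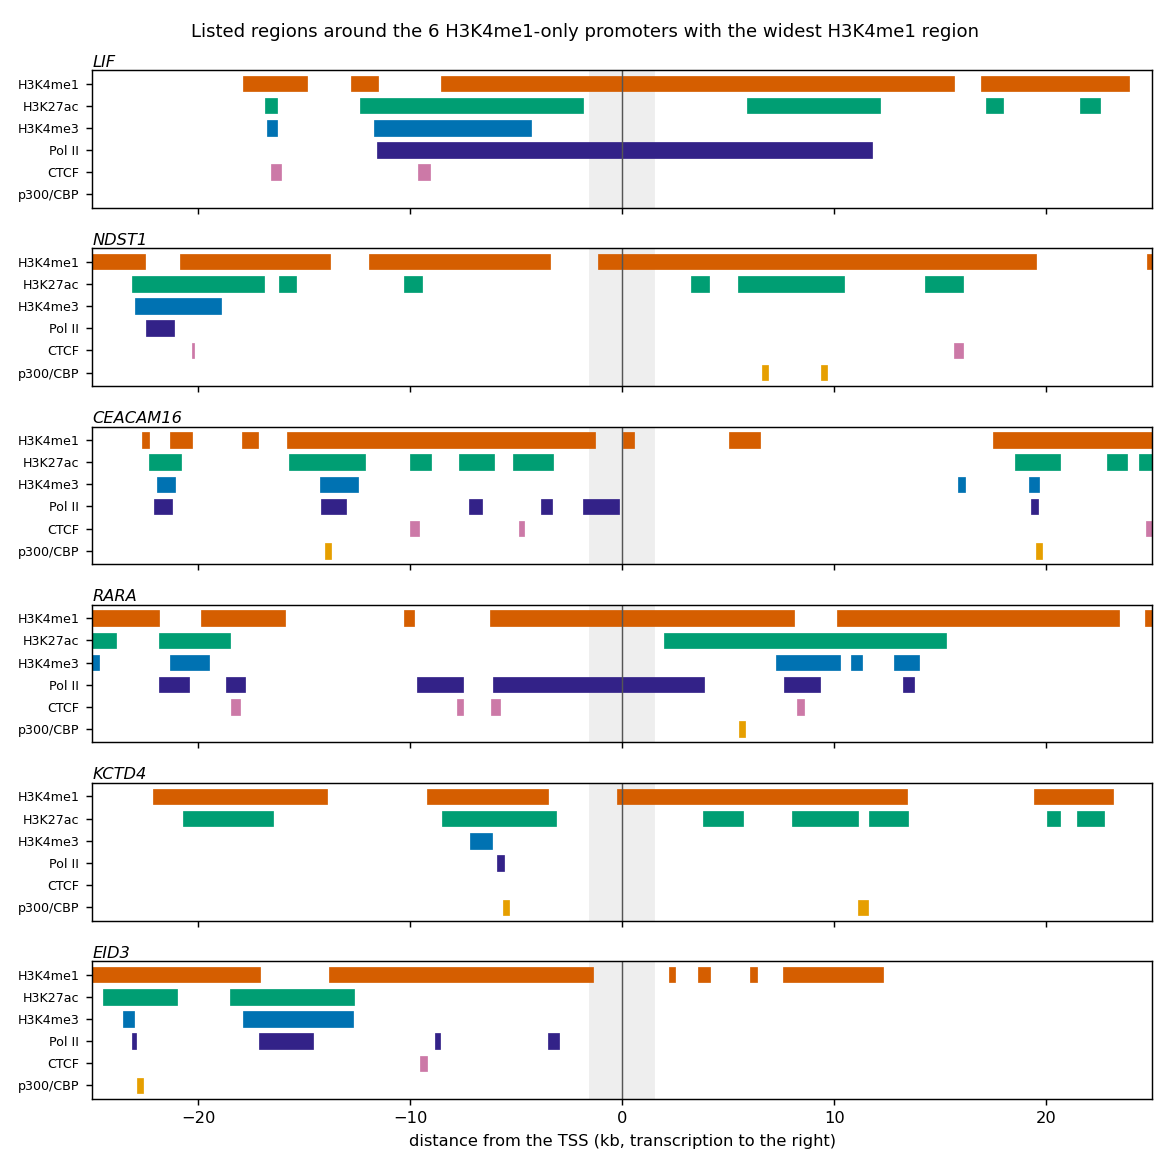
Listed regions of the 6 targets by distance from the TSS in kb at the 6 H3K4me1-only promoters with the widest H3K4me1 region, drawn with transcription to the right and the 3 kb window shaded. No green H3K27ac or blue H3K4me3 bar enters the shaded window, while H3K27ac lies 0.353 kb from it at LIF and 11.2 kb at EID3.

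The neighbourhood of H3K4me1-only promoters held more acetylation than that of promoters with no mark. An H3K27ac region lay within 10 kb of the window at 489 of 1104, or 44.3% (41.4% to 47.2%), against 19.4% (18.5% to 20.5%) of the 6039 windows with none of the marks and 70.4% of all windows, many of which carry H3K27ac themselves. The median distance was 12.2 kb (quartiles 3.58 and 35.1 kb), against 43.4 kb in windows with no mark and 25.8 kb in the 274 windows with H3K4me1 and H3K4me3 but no H3K27ac. Within 50 kb the shares were 80.7% and 53.3% for H3K4me1-only and no-mark windows, beside 83.7% of all windows. In 145 windows (13.1%) the H3K4me1 region that reached the promoter also overlapped H3K27ac outside it. The rule used the same H3K27ac list inside the window, so these distances are a description.

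Pol II was listed at a small share of the H3K4me1-only promoters, which was still larger than the share at promoters with no mark. It was present in 123 of 1104 windows, or 11.1% (9.42% to 13.1%), where 58.4% of all windows had it and 94.3% of those with all 3 marks. The share was 3.43% (3.00% to 3.92%) in windows with no mark, an odds ratio of 3.53 (95% Wald interval 2.80 to 4.46). Windows with H3K4me1 and H3K27ac had Pol II in 20.1%, which was more than in the H3K4me1-only windows (odds ratio 0.497, 0.350 to 0.705). Against windows with H3K4me1 and H3K4me3, of which 8.03% had Pol II, the interval included 1 (1.44, 0.894 to 2.31). Distance to H3K27ac moved with this result, and within 4 strata of that distance the odds ratio against no-mark windows was 2.16 (1.69 to 2.76). Its part in the rest of the difference was not tested.

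Pol II covered the TSS at 76 of the H3K4me1-only promoters (6.88%), beside 51.2% of all windows and 1.92% of no-mark windows (odds ratio 3.77, 2.81 to 5.08). The 6 Pol II peaks centred nearest to the TSS belonged to CAPS, ELMO3, C17orf114, MFAP4, B3GNT8 and GAL3ST3, with centres from 14.0 to 31.0 bp away. CAPS encodes calcyphosine, a calcium-binding protein, ELMO3 an engulfment and motility protein and MFAP4 a microfibril-associated protein. Their peaks ranged from 200 bp at C17orf114 and B3GNT8 to 7800 bp at GAL3ST3, whose window had H3K27ac 0.119 kb away and H3K4me3 0.569 kb away. Wide peaks were common, since the 128 Pol II peaks that touched H3K4me1-only windows had a median width of 3180 bp, against 850 bp for the whole list. The centre of the peak lay inside the window at 79 of the 123 promoters. At 18 of the 123 (14.6%) the same Pol II peak also reached the window of another gene with H3K27ac.

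CTCF, which binds insulators and the bases of chromatin loops, was listed in 141 of 1104 H3K4me1-only windows, or 12.8% (10.9% to 14.9%), beside 17.6% of all windows. The share in windows with no mark was 4.45% (3.96% to 5.00%), an odds ratio of 3.14 (2.53 to 3.89). Windows with H3K4me1 and H3K27ac had a share of 12.5%, and the odds ratio of 1.03 had an interval from 0.690 to 1.54. Windows with H3K4me1 and H3K4me3 had CTCF more often, in 23.4% (odds ratio 0.480, 0.345 to 0.669).

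CTCF covered the TSS at 25 promoters (2.26%), beside 4.08% of all windows and 0.811% of those with no mark (odds ratio 2.83, 1.74 to 4.61). The centres nearest to the TSS were at CGB1, a chorionic gonadotropin beta gene, 1 bp away, F5, the coagulation factor V gene, 7 bp, ZNF587B, a zinc finger gene, 9 bp, CCDC177 13.0 bp, and MMP10, the stromelysin 2 gene, 17.0 bp. A further annotated gene has the same TSS as CGB1 and was counted as well. H3K27ac lay 0.149 kb from the window of CGB1, 97.7 kb from that of F5 and 178 kb from that of MMP10, so CTCF at the TSS was found both near and far from acetylation. At F5, ZNF587B, CCDC177 and MMP10 the H3K4me1 region covered the TSS too.

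The CTCF letters CCNNNAGNNGGC, on either strand, were in 50.7% of H3K4me1-only windows, 50% of all windows and 40.4% of windows with no mark. Among H3K4me1-only windows they were in 66.0% (57.8% to 73.3%) of the 141 with a CTCF peak and in 48.5% (45.4% to 51.7%) of the 963 without. Within the peaks themselves, 68 of the 147 CTCF peaks at these windows held a match (46.3%), beside 37.9% of the 39596 peaks of the whole list.

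The acetyltransferases p300 and CBP deposit acetyl groups on lysine 27 and were rare at promoters in general, H3K4me1-only promoters included. They were listed in 4 of 1104 H3K4me1-only windows, or 0.362% (0.141% to 0.928%), beside 0.769% of all windows. The share was 0.447% in windows with no mark and 0.808% in windows with all 3 marks, which carry H3K27ac. In windows with H3K4me1 and H3K4me3 it was 0 of 274. The odds ratio of 0.810 against windows with no mark had an interval from 0.283 to 2.32, too wide to give a direction. The no-mark class includes all windows of chromosomes Y and M. Without them the odds ratio was 1.55 (0.508 to 4.70), a setting chosen after the values were seen. Windows with H3K4me1 and H3K27ac differed clearly, with p300/CBP in 24 of 273, or 8.79% (5.98% to 12.7%), an odds ratio of 0.0377 (0.0130 to 0.110) for H3K4me1-only against them. All 4 peaks lay upstream of the TSS, with centres 113 bp away at BCL2A1, 570 bp at KRTAP2-4, 866 bp at UGT2B7 and 986 bp at SCYGR1, a small cysteine- and glycine-rich protein gene. The nearest H3K27ac region was 26.1 kb from the window of BCL2A1, 0.230 kb from that of KRTAP2-4, 2.74 kb from that of UGT2B7 and 17.0 kb from that of SCYGR1. TGAGTCA or TGACTCA was in 0 of the 4 peaks, beside 20.7% of the 13984 p300/CBP peaks of the whole list.

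None of Pol II, CTCF and p300/CBP was listed at 854 of the 1104 promoters (77.4%), and Pol II and CTCF were both present at 18. The plot of features by class sets these shares beside those of the other classes.

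**Figure D3:**
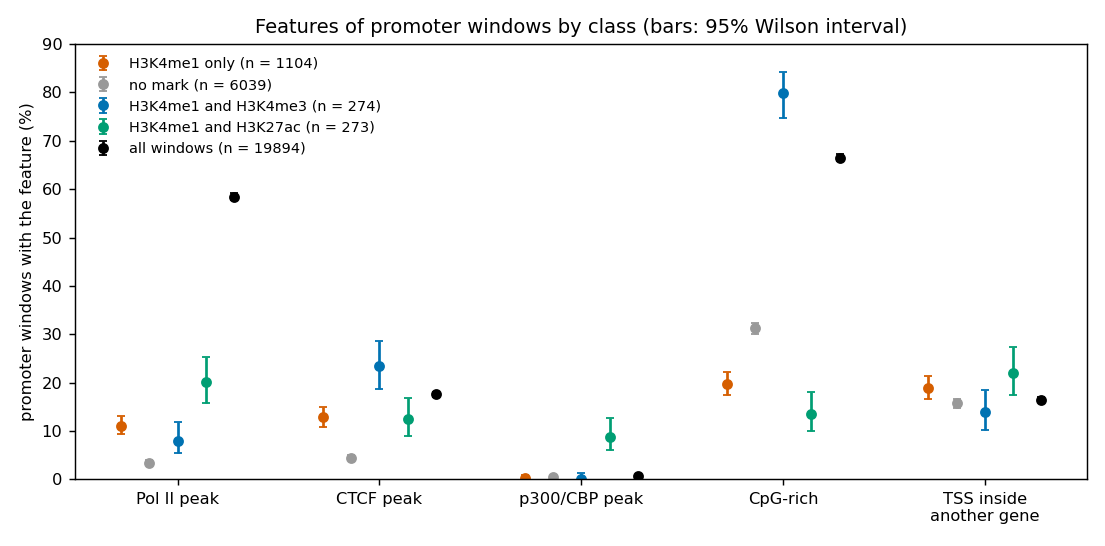
Percentage of promoter windows with a Pol II, CTCF or p300/CBP peak, with CpG-rich sequence around the TSS, or with the TSS inside another protein-coding gene, by class of window. Points are shares and bars 95% Wilson intervals. H3K4me1-only windows lie above no-mark windows for Pol II (11.1% and 3.43%) and CTCF (12.8% and 4.45%) and below them for CpG-rich sequence (19.7% and 31.2%).

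The H3K4me1-only promoters were mostly poor in CpG. CpG observed/expected, the number of CpG dinucleotides divided by the number that the C and G content would give, was computed over 500 bp either side of the TSS, and windows at or above 0.6 were called CpG-rich. By this measure 217 of 1104, or 19.7% (17.4% to 22.1%), were CpG-rich, beside 66.5% of all windows and 89.0% of those with all 3 marks. Windows with no mark were CpG-rich more often, in 31.2% (odds ratio 0.538, 0.460 to 0.630). The contrast with windows carrying H3K4me1 and H3K4me3 was larger, since 79.9% of those were CpG-rich (odds ratio 0.0614, 0.0441 to 0.0855). Those with H3K4me1 and H3K27ac had the lowest share, 13.6% (odds ratio 1.56, 1.07 to 2.27). The median CpG observed/expected was 0.275, against 0.335 in windows with no mark and 0.786 in windows with all 3 marks. The median GC content was 57.0%, against 53.4% in windows with no mark, 61.3% in all windows and 64.0% in windows with all 3 marks.

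**Figure D4:**
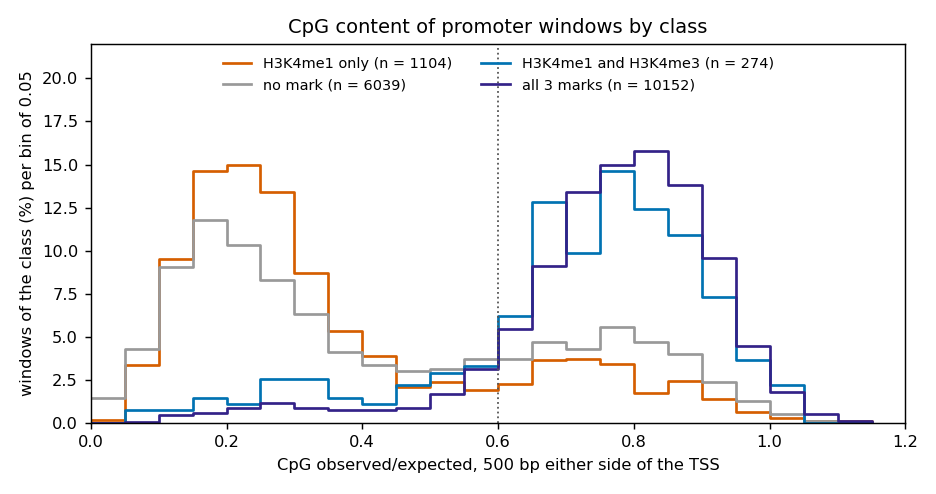
Distribution of CpG observed/expected within 500 bp of the TSS, as the percentage of windows of each class per bin of 0.05, with the threshold of 0.6 dotted. H3K4me1-only windows have their maximum at low CpG content (median 0.275), and windows with H3K4me1 and H3K4me3 or with all 3 marks (median 0.786 for the latter) have theirs above the threshold.

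CpG content went with the position of H3K4me1 among the H3K4me1-only promoters. Of the 411 with H3K4me1 over the TSS, 6.08% (4.15% to 8.83%) were CpG-rich, against 27.7% (24.5% to 31.2%) of the 693 with H3K4me1 only beside it, an odds ratio of 0.169 (0.109 to 0.262). Pol II did not follow this split detectably, with 12.4% (9.57% to 15.9%) and 10.4% (8.33% to 12.9%), nor did CTCF, with 13.6% (10.6% to 17.3%) and 12.3% (10.0% to 14.9%). The comparison by position was chosen after the values were seen.

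Short sequence motifs were counted in the same windows. TGAGTCA or TGACTCA, the AP-1 element, occurred in 446 of 1104 H3K4me1-only windows, or 40.4% (37.5% to 43.3%), beside 30.8% of all windows, 31.5% of those with no mark and 53.1% (47.2% to 58.9%) of those with H3K4me1 and H3K27ac. TATAAA on the gene's strand between 40 and 20 bp upstream of the TSS, where a TATA box lies, was found in 79 windows, or 7.16% (5.78% to 8.83%), beside 3.83% of all windows, 7.37% of those with no mark and 1.55% of those with all 3 marks. TATA-containing promoters included those of LIF, MMP10, KRT14, KRT16 and KRT17. Matches are counts of letters and no binding of AP-1 or of the TATA-binding protein was measured in these lists.

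The TSS lay inside another protein-coding gene at 209 of 1104 promoters, or 18.9% (16.7% to 21.3%), beside 16.4% of all windows and 15.7% of those with no mark (odds ratio 1.26, 1.06 to 1.48). The host gene's own window had H3K27ac in 106 of these 209 cases (50.7%, 44% to 57.4%), against 46.4% (43.2% to 49.5%) for no-mark windows inside genes. Pol II was listed at 18.2% (13.5% to 24.0%) of the H3K4me1-only promoters inside another gene and at 9.5% (7.75% to 11.6%) of those outside. A polymerase transcribing the host gene and one at the nested promoter cannot be told apart in a peak list.

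Some of these genes had an active promoter elsewhere. Among 245 genes with another basic TSS at least 3 kb away, 66, or 26.9% (21.8% to 32.8%), had both H3K27ac and H3K4me3 at another TSS window. They were 5.98% of the 1104, beside 4.97% of all windows. Among genes with another TSS the share was 23.2% over all windows, 14.8% (12.9% to 16.9%) where the canonical window had no mark and 27.3% where it had all 3 marks. With exactly 1 other TSS the share was 15.9% (10.9% to 22.6%), against 11% (8.91% to 13.4%) for no-mark windows, and these intervals overlap. TRIM2, a ubiquitin ligase gene, had both marks at 13 of 21 other TSSs, DMKN, which encodes the epidermal protein dermokine, at 12 of 13, and MIA2 at 8 of 9. CTBP2, a transcriptional corepressor gene, had them at 4 of 5, RARA at 4 of 4 and the complement gene C2 at 3 of 3. These are counts of annotated start positions, not of separate promoters. Starts that lie close together share the same marked regions.

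For such genes the canonical window does not describe the whole gene. At RARA the nearest such TSS was 9.10 kb from the canonical one and at CTBP2 131 kb. RUNX2, an osteoblast transcription factor gene, had its nearest one at 94.2 kb and TIAM1, a RAC exchange factor gene, at 215 kb. RASSF1, a tumour suppressor gene, had one at 3.37 kb. The last 3 genes were picked after their values were seen.

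Gene families were read against the 5.55% of all windows that were H3K4me1-only. Of 27 families and tissue lists, 18 had a higher share. A window with H3K27ac cannot be in the class, and 61.4% of all windows had it. A family with few such windows can therefore exceed 5.55% without more H3K4me1 among its remaining windows. Of all windows with neither H3K27ac nor H3K4me3, 1104 had H3K4me1 and 6039 did not. Whether a family differed from that proportion was not tested. No set test was made, and the small families have wide intervals. With 1 kb windows 4.21% of all windows were in the class, and the counts of families that then moved by over 1.5 times are given beside them. The plot by gene family shows all 27.

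**Figure D5:**
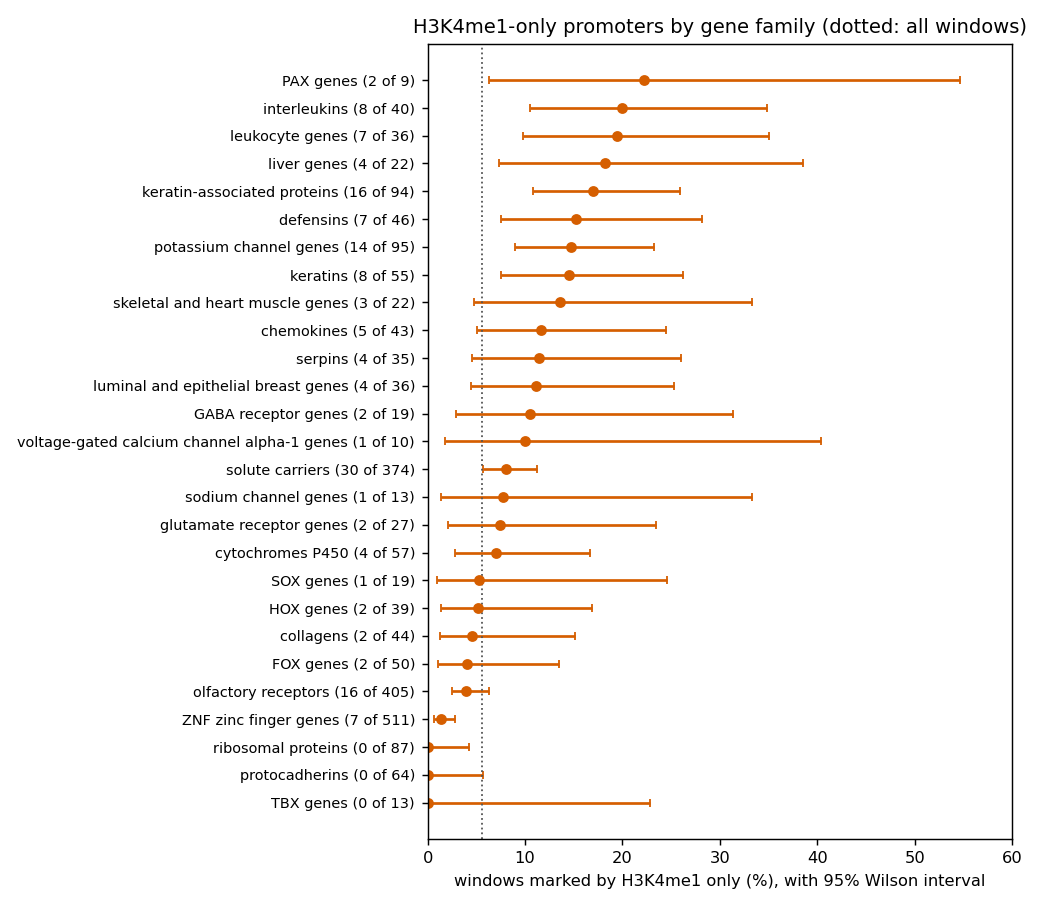
Percentage of the promoter windows of each gene family or tissue list that carried H3K4me1 only, with 95% Wilson intervals, the counts in brackets and the share of all windows (5.55%) dotted. Interleukins (20%) and keratin-associated proteins (17.0%) lie above the dotted line and ZNF zinc finger genes (1.37%) below it, with intervals that exclude it.

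Interleukins, the cytokines of immune signalling, had 8 of 40 windows in the class, or 20% (10.5% to 34.8%), namely IL1A, IL1B, IL19, IL20, IL23A, IL32, IL17D and IL1F10. H3K4me1 covered 1550 bp of the IL20 window, 1500 bp at IL1B, 1450 bp at IL1A and 800 bp at IL23A, and in all 4 it lay over the TSS. Distances to H3K27ac ranged from 2.22 kb at IL19 to 67.4 kb at IL17D. IL23A alone of the 8 had Pol II and IL20 alone had CTCF. A further 23 interleukin windows had no mark and 9 had H3K27ac. Chemokines, which direct leukocyte migration, had 5 of 43 (11.6%, 5.07% to 24.5%), including CCL27 and CCL28, both made by epithelia. CCL15 and the joint annotation CCL15-CCL14 were both counted. They share an H3K4me1 region of 800 bp and are not separate observations.

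Keratins, the intermediate filaments of epithelia, had 8 of 55 windows in the class (14.5%, 7.56% to 26.2%), but 3 with 1 kb windows and 5 when at least 250 bp of H3K4me1 was required. KRT14, KRT16 and KRT17, keratins of basal or activated keratinocytes, are neighbours on chromosome 17 and were all H3K4me1-only. KRT16 had a region of 1400 bp over its TSS, KRT17 had 926 bp in regions on both sides of its TSS and KRT14 only 96 bp upstream, so KRT14 fell close to the margin of the rule. H3K27ac was 33.5 kb from the window of KRT16, 21.7 kb from that of KRT17 and 34.8 kb from that of KRT14. KRT15, a basal keratin, had 1091 bp and H3K27ac 0.609 kb away. On chromosome 12, KRT4, KRT78 and KRT79 formed another set of neighbours.

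Keratin-associated proteins of the hair shaft had 16 of 94 windows in the class (17.0%, 10.8% to 25.9%). KRTAP4-5 had the most H3K4me1, 1700 bp, followed by KRTAP10-4 and KRTAP5-5 with 1600 bp each and KRTAP5-11 with 1530 bp, in all 4 over the TSS. KRTAP10-4 lies inside another gene, and the distance to H3K27ac was 86.3 kb there and 6.53 kb at KRTAP4-5. Defensins, antimicrobial peptides of epithelia and neutrophils, had 7 of 46 (15.2%, 7.57% to 28.2%), or 4 with 1 kb windows, and none with H3K27ac. DEFB4A and DEFB4B are near-identical copies, so their counts are uncertain.

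Potassium channel genes had 14 of 95 windows in the class (14.7%, 8.99% to 23.2%), a share equal to that with H3K27ac, but 7 with 1 kb windows. KCNK7 had 1200 bp of H3K4me1 and Pol II in its window, KCNJ9 and KCNK6 had 1100 bp each and KCNT1 1050 bp with CTCF. Solute carriers, the membrane transporters, had 30 of 374 (8.02%, 5.68% to 11.2%), led by SLC51B, a bile acid transporter subunit gene, with 1876 bp. Other channel and receptor families had few: SCN2B was the only one of 13 sodium channel genes, CACNA1F of 10 calcium channel alpha-1 genes, GRIK4 and GRIK5 of 27 glutamate receptor genes, and GABRB2 and GABRA6 of 19 GABA receptor genes. With 1 kb windows the counts were 2 for sodium channel, 0 for calcium channel and 0 for GABA receptor genes. The intervals of these last 4 families include 5.55%.

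Lists of genes of other tissues were represented as well. Leukocyte genes had 7 of 36 windows in the class (19.4%, 9.75% to 35.0%) and 2 with H3K27ac. ITGAX, a myeloid integrin gene, had 2146 bp of H3K4me1 and CD14, the monocyte coreceptor for lipopolysaccharide, 1300 bp, while the B cell genes CD79B and CD79A had 850 and 400 bp. ITGAL, with 300 bp, and SPI1, the gene of the transcription factor PU.1, with only 103 bp, were also in the class. None of these 7 windows had Pol II or CTCF.

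Liver genes had 4 of 22 (18.2%, 7.31% to 38.5%), or 1 with 1 kb windows, with FGB, a fibrinogen gene, at 2188 bp of H3K4me1, SERPINA1 at 938 bp, AHSG at 898 bp and APOA1 at 513 bp. At APOA1, which encodes the main protein of high-density lipoprotein, Pol II and CTCF were both listed and H3K27ac lay 0.0870 kb outside the window. At AHSG, the fetuin-A gene, H3K4me3 began 0.00200 kb outside, so these 2 would change class with a slightly wider window. Muscle genes had 3 of 22 (13.6%, 4.75% to 33.3%): TNNT1, with 2027 bp and Pol II, TNNT2, with 993 bp and CTCF, and DES, with 298 bp.

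Luminal and epithelial breast genes had 4 of 36 (11.1%, 4.41% to 25.3%). PRLR, the prolactin receptor gene, had 1462 bp of H3K4me1, RAB25, an epithelial small GTPase gene, 1450 bp over its TSS, and ELF5, a luminal progenitor factor gene, and TFF3, a secreted trefoil factor gene, 350 bp each. ELF5 had CTCF in its window and none of the 4 had Pol II. Another 18 genes of the list had H3K27ac and 9 had no mark, so H3K4me1 alone was the state of a minority.

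As a share of all their windows, zinc finger genes were low, and olfactory receptors lay below 5.55% with an interval that includes that value. ZNF zinc finger genes had 7 of 511 (1.37%, 0.665% to 2.80%), and 82.2% of them had H3K27ac. Olfactory receptors had 16 of 405 (3.95%, 2.45% to 6.32%), or 8 with 1 kb windows, with the most H3K4me1 at OR52K1, 1375 bp. No mark was found at 94.6% of the family. Among windows with neither H3K27ac nor H3K4me3, 16 olfactory receptors had H3K4me1 and 383 did not, beside 1104 and 6039 over all windows. These counts were 7 and 76 for ZNF genes, 8 and 40 for keratins, 7 and 38 for defensins and 8 and 23 for interleukins. Whether these proportions differed was not tested, and the families were picked after their values were seen. Ribosomal protein genes had 0 of 87, which allows up to 4.23% by the Wilson interval, and protocadherins 0 of 64, which allows up to 5.66%. TBX genes had 0 of 13. Among developmental factors, PAX genes had 2 of 9 (PAX2 and PAX8), HOX genes 2 of 39 (HOXB6 and HOXD8), FOX genes 2 of 50 and SOX genes 1 of 19 (SOX7), and the interval excludes 5.55% for PAX genes (6.32% to 54.7%) but not for the other 3. That call is lost with 1 kb windows, where 0 PAX genes were in the class. Serpins had 4 of 35 (11.4%), or 2 with 1 kb windows, cytochromes P450 4 of 57 (7.02%) and collagens 2 of 44 (4.55%), COL9A2 and COL9A3. With 1 kb windows HOX genes and collagens had 1 each and SOX genes 0.

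H3K4me1-only promoters were spread unevenly over chromosomes. The share was highest on chromosome 20, 71 of 546 windows or 13.0% (10.4% to 16.1%), followed by chromosomes 19 (9.52%), 17 (9.20%) and 11 (8.56%). Among chromosomes 1 to 22 and X it was lowest on X, 8 of 841 or 0.951% (0.483% to 1.87%), then on chromosomes 4 (2.25%) and 18 (2.26%). The H3K4me1 list held 3399 regions on chromosome 20 and 1104 on X, where there were 546 and 841 windows. It held 3498 on chromosome 19 and 3531 on chromosome 4, where there were 1471 and 756 windows. Whether the shares followed these numbers of regions was not tested. No H3K4me1-only promoter was on chromosomes Y (0 of 62) or M (0 of 13). All 62 windows of Y and all 13 of M had no mark, so they count in the no-mark class used for comparison above. On Y the p300/CBP list held 264 peaks and the CTCF list 82. Without them the odds ratio of p300/CBP against no-mark windows was 1.55 (0.508 to 4.70), a setting chosen after the values were seen. The windows of 82 of these promoters overlapped the window of another such promoter, so they share H3K4me1 regions and are not separate observations.

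Runs of at least 3 consecutive H3K4me1-only windows numbered 19, with 17 of 3 windows and 2 of 4. Some runs consist of overlapping windows of nearby or joint annotations and are not separate observations. CRYAB, HSPB2 and HSPB2-C11orf52 spanned 0.966 kb. TSPAN1, P3R3URF and P3R3URF-PIK3R3 spanned 1.40 kb, and the last pair has the same TSS. They were looked for after the values were seen. On chromosome 20, DEFB121, DEFB123 and DEFB124 formed a run of 4 with REM1 over 69.1 kb. On chromosome 11, MMP10, MMP1 and MMP3, which encode a collagenase and stromelysins that degrade extracellular matrix, formed a run over 63.0 kb. H3K4me1 covered 1590 bp of the MMP1 window, 700 bp at MMP3 and 500 bp at MMP10, over the TSS at all 3 genes, and the nearest H3K27ac region was 176, 130 and 178 kb from the respective windows. This run therefore lay far from acetylation, unlike the promoters with the widest H3K4me1 regions. CRYAB and HSPB2, divergent genes of small heat shock proteins, shared a region of 750 bp.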

How the data were processed

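Per the study's methods, the authors aligned reads to hg19 with BWA-backtrack (the submitters' processing notes name Bowtie2), made a 50-bp signal from uniquely mapped reads (PASHA), merged replicates and called peaks by threshold. The threshold was 30 for H3K4me1 and H3K4me3, 50 for H3K27ac, Pol II and CTCF and 60 for p300/CBP, and gaps up to 1000 bp (H3K4me1), 500 bp (H3K27ac and H3K4me3), 800 bp (Pol II) or 50 bp (CTCF and p300/CBP) were joined. The names of the deposited lists mark background subtraction for H3K4me1, H3K27ac, H3K4me3 and p300/CBP, but not for Pol II or CTCF. What this difference did to the shares of Pol II and CTCF was not tested. The deposited lists hold positions in base pairs. Listed ends were taken as the first base after a peak. Chromosome lengths were checked against GRCh37, which supplied sequence.

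Overlaps of at least 1 bp, 95% Wilson intervals, odds ratios with 95% Wald intervals and Mantel-Haenszel odds ratios over strata were computed with Python 3.11.15, NumPy 2.4.6, SciPy 1.17.1 and pysam 0.24.0, and drawn with matplotlib 3.10.9. The functions were tested on simulated data. Alternatives changed the window, the overlap, the width of peaks kept, the CpG threshold and the strata. A difference was called where the interval of the odds ratio excluded 1. Genes named were the 6 with the widest H3K4me1 region, the nearest Pol II, CTCF or p300/CBP centre, or most other marked TSSs, the 3 on each side of the rule's margin, and up to 4 per family with most H3K4me1. Others were named after their values were seen. The members and lists were chosen with earlier results of these data known. Some items are not reported here.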

Additional observations from a re-analysis of the deposited data

How the results depend on the processing

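The number of H3K4me1-only windows ranged from 838 (1 kb windows) to 1289 (5 kb windows), but 664 and 953 of the 1104 stayed in the class, and 550 of them did when regions narrower than their list's median were dropped, a stand-in for a stricter threshold that gave 1227 windows. Requiring the peak centre inside lowered the Pol II share from 11.1% to 7.16%. Keeping wide peaks gave 8.97% for Pol II and 9.15% for CTCF. The CpG-rich share was 10.1% at a threshold of 0.75 and 8.61% over the whole 3 kb. H3K27ac lay within 50 kb at 80.7%. H3K4me1 covered the TSS in 41.6% of windows with at least 250 bp of it and in 47.1% with wide regions, both settings chosen after seeing the data.

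The odds ratios against no-mark windows ranged from 2.16 to 3.78 for Pol II and from 2.98 to 4.27 for CTCF, with every interval above 1. For p300/CBP the direction turned to 2.77 in strata of distance to H3K27ac, 1.22 with the peak centre inside, 1.48 with 1 window per run of overlapping windows, 1.55 without chromosomes Y and M and 3.26 in 16 strata of CpG and distance (the last 2 chosen after seeing the data). All these intervals include 1, the value rests on 4 peaks, and the cause was not tested. Of 54 alternative counts by family, 37 stayed within 1.5 times of the count reported, 16 were lower and 1 higher. A call on peak height, an error between replicates and leaving out a replicate were not possible with merged positions. No paired analysis was possible because replicate libraries had been merged into a single list per target. Low mappability of repeated genes was not tested.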
